A study of Mus musculus with 2 samples.

Results

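The 4 chemokine genes Xcl1, Ccl3, Ccl4 and Ccl5 are described here in CD8+ T cells of mouse lymph node, measured cell by cell. They were taken by gene symbol from the 32285 genes of the deposited matrices, and all 4 were found. They were chosen with their levels in these cells known, so the difference of each between the libraries is given as a description, with no test. The series asks about CD8+ T cells with and without electrical stimulation through a matrix. It holds 1 library labelled NC and 1 labelled HC. The labels neither spell out these letters nor say which library was stimulated, and they name no strain, age, number of animals or culture. After filtering, 13641 NC and 13617 HC cells remained, with 115789139 and 114430972 counted molecules (UMIs, unique molecular identifiers) and medians of 6898 and 7425 per cell. At least 1 UMI of the CD8 chain genes Cd8a and Cd8b1 was in 98.4% of NC and 98.3% of HC cells. The libraries had 64 cell barcodes in common, 49 of them among the kept cells. With 1 library per group there are no replicates and no p-values, and every interval below is a 95% interval for counting error only.

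Chemokines are small secreted proteins that guide cells along gradients by way of G protein-coupled receptors. Activated CD8+ T cells and natural killer cells make Xcl1, the ligand of Xcr1 on cross-presenting dendritic cells. Ccl3 and Ccl4 are inflammatory chemokines, and Ccl3 binds Ccr1. Both are made soon after a T cell is triggered through its antigen receptor. Ccl5 binds Ccr1 and Ccr3, and in mouse it is known as a chemokine of effector and memory T cells, held as a stored message in memory cells.

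Xcl1 lies on chromosome 1 (164931644 to 164935527, minus strand, GENCODE positions on GRCm38, the build also called mm10). The other 3 genes lie within 139 kb of chromosome 11. Ccl5 (83525778 to 83530518) and Ccl3 (83647844 to 83649355) are on the minus strand, and Ccl4 (83662584 to 83664683) is on the plus strand. The end of Ccl5 is 117 kb from the start of Ccl3, whereas Ccl3 and Ccl4 are 13.2 kb apart. RefSeq promoter sequences were matched for 2 of the 4 genes, Xcl1 and Ccl3, which lie on different chromosomes and were often detected in the same cells. The 250 bases upstream of each RefSeq start are printed on the strand of the gene (GRCm38.p6). Capitals mark the core letters of the NFAT motif, GGAAA on either strand. NFAT is the calcium-dependent factor of activated T cells.

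Xcl1 upstream region, chr1:164935523-164935772, minus strand: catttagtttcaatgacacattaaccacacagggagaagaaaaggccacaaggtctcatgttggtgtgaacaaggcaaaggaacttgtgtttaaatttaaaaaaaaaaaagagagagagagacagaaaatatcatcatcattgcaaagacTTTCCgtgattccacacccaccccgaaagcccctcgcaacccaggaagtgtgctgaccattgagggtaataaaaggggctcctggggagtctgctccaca

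Ccl3 upstream region, chr11:83649379-83649628, minus strand: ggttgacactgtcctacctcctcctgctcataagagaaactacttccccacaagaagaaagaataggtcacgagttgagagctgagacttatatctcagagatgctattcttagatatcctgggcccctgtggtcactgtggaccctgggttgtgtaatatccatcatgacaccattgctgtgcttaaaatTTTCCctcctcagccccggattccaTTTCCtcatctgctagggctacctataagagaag

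The NFAT core had 1 match in the Xcl1 window, 96 bases upstream of the start, and 2 in the Ccl3 window, 55 and 30 bases upstream. These letters are common, since 55.6% of the 32851 promoters of the table hold them in the same window. The RUNX core TGTGGT had 1 match in each window, 222 bases upstream in Xcl1 and 117 in Ccl3, and is held by 14.0% of promoters. TATAA had 0 matches for Xcl1 and 2 for Ccl3, of which the nearer lay 7 bases upstream of the RefSeq start. The GENCODE start of Ccl3 is 23 bases further downstream. Neither window held TGANTCA (AP-1, in 6.75% of promoters), TGACGTCA (CRE, 1.55%), GCGNGGGCG (EGR, 4.70%) or TTCNNNGAA (STAT, 7.02%). All motifs were searched on both strands. No 2 matches overlapped, and a match is a description of the letters, not of binding.

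Xcl1 was the most abundant of the 4 messages in NC and Ccl5 in HC. Levels are in CPM, UMIs per 1000000 UMIs of the library, and were not divided by length because the kit counts 3' ends. Xcl1 had 35226 UMIs in NC, 304 CPM (301 to 307), and 3645 in HC, 31.9 CPM (30.8 to 32.9), which is 9.55-fold higher in NC (9.23 to 9.88). Its level ranked 352nd among all genes in NC and 3510th in HC. Ccl3 had 3713 and 591 UMIs, 32.1 against 5.16 CPM, 6.21-fold higher in NC (5.69 to 6.78). Ccl4 had 12166 and 2279 UMIs, 105 against 19.9 CPM, 5.28-fold higher in NC (5.04 to 5.52). The difference for Ccl5 was smaller. It had 16915 and 12054 UMIs, 146 against 105 CPM, 1.39-fold higher in NC (1.35 to 1.42). The order in NC was Xcl1, Ccl5, Ccl4, Ccl3, and in HC it was Ccl5, Xcl1, Ccl4, Ccl3, with no overlap between the counting intervals of neighbours in either order.

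As background, 8704 genes reached 5 CPM in 1 library or both. NC exceeded HC by 1.5-fold or more in 1.47% of them and HC exceeded NC in 1.93%, and their median log2 difference, HC minus NC, was -0.03. Of the 4 chemokines, 3 were past 1.5-fold toward NC, and Ccl5 was not. Since the chemokines were picked for these ratios, nothing is read from that count. In log2 of HC over NC, Xcl1 was at -3.26, Ccl3 at -2.63, Ccl4 at -2.40 and Ccl5 at -0.47. They ranked 2nd, 3rd, 4th and 273rd from the NC end of the 8704 genes.

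**Figure D1:**
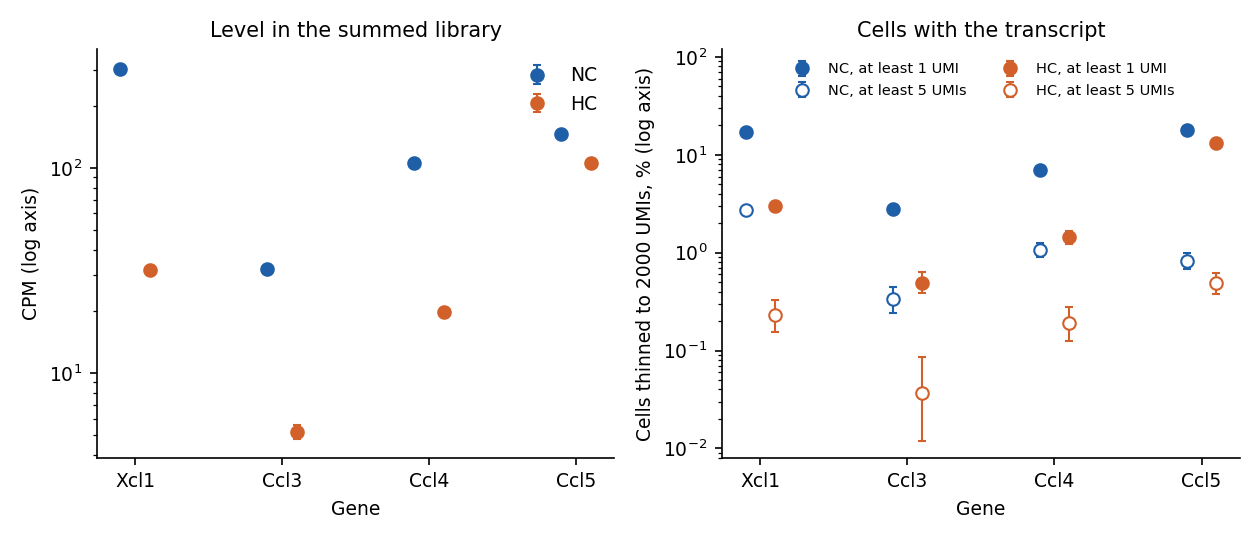
Levels of the 4 chemokine genes in CPM (left) and shares of cells with the transcript after thinning to 2000 UMIs per cell (right, filled for at least 1 UMI and open for at least 5), both on log axes, with 95% counting intervals; 1 library per group. Xcl1 stood at 304 CPM in NC and 31.9 in HC, while Ccl5 stood at 146 and 105.

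For shares of cells, each cell was thinned at random to 2000 UMIs, which left 13508 NC and 13523 HC cells of equal depth. The Xcl1 share was then 17.05% in NC (16.4 to 17.7) and 2.97% in HC (2.69 to 3.27). Ccl3 was in 2.80% and 0.495%, Ccl4 in 6.93% and 1.43%, and Ccl5 in 17.8% and 13.1%. Without thinning the shares were 33.2% and 7.70% for Xcl1, 6.06% and 1.34% for Ccl3, 14.0% and 3.40% for Ccl4, and 40.9% and 32.7% for Ccl5. The shares of Xcl1 and Ccl5 in NC were close at 2000 UMIs per cell, and Ccl5 had the larger share without thinning, although its CPM was below that of Xcl1.

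A single UMI may not mark a producing cell here. In NC, 19 cells carried at least 3 of 8 B cell markers, taken as a type that should lack Xcl1, although activated B cells can make Ccl3 and Ccl4. Thinned to the same depth, 7 of these 19 (36.8%, 16.3 to 61.6) had an Xcl1 UMI and 4 (21.1%, 6.05 to 45.6) a Ccl5 UMI, against 17.05% and 17.8% of all NC cells. Unthinned, Xcl1 was in 12 of the 19 (63.2%) against 33.2% of the other NC cells, at medians of 14145 and 6891 UMIs. Of the 19, 14 also had Cd8a (73.7%, against 84.9% of the others) and 14 had Cd3e, while 3 had neither Cd8 nor Cd3e. Free RNA and a T cell in the same droplet therefore cannot be told apart. The shares of NC cells with 1 UMI of Xcl1 or Ccl5 are at or below this level and are not read as shares of expressing cells. Ccl3 was in 0 of the 19 cells and Ccl4, unthinned, in 2 (10.5%, 1.30 to 33.1) against 14.0% of the others, which lies within that interval. HC had 1 such cell, so no like value can be given there.

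Cells with at least 5 UMIs at the common depth are a firmer measure, although not shown to be free of such background. Before thinning, the highest values among the 19 B cell-like NC cells were 17 Xcl1 and 5 Ccl5 UMIs. There were 365 NC cells with 5 or more Xcl1 UMIs (2.70%, 2.44 to 2.99) and 31 HC cells (0.229%, 0.156 to 0.325). For Ccl4 there were 144 (1.07%) and 26 (0.192%), and for Ccl3 45 (0.333%) and 5 (0.0370%). Ccl5 had 112 (0.829%) and 66 (0.488%). The intervals of the libraries did not overlap for Xcl1, Ccl3, Ccl4 or Ccl5. Xcl1-rich cells were somewhat deeper before thinning, with a median of 8788 UMIs in NC against 6941 in cells with no Xcl1. NC cells with 1 Xcl1 UMI were not deeper, at a median of 6565. Cells of each library were also split into 4 classes by original depth. From shallow to deep, Xcl1 was in 21.5%, 12.1%, 14.1% and 20.4% of NC cells. In HC it was in 2.25%, 2.52%, 3.04% and 4.05%.

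All 4 messages were uneven between cells. The 365 Xcl1-rich cells held 57.3% of the Xcl1 UMIs of the thinned NC library, and the 31 in HC held 35.7%. For Ccl4 these shares were 56.8% and 50.1%, for Ccl3 45.1% and 28.5%, and for Ccl5 23.9% and 19.95%. Ccl5 was the most evenly spread, with 43.5% of its NC UMIs found as singles. Before thinning, single NC cells reached 401 UMIs of Xcl1, 169 of Ccl3, 245 of Ccl4 and 136 of Ccl5. In HC the highest cells had 135, 52, 152 and 293, so the highest Ccl5 cell of the series was in HC. The 1% of cells with the most UMIs of each gene held 43.2% of the Xcl1, 69.4% of the Ccl3, 57.4% of the Ccl4 and 26.7% of the Ccl5 UMIs in NC. In HC the same fraction of cells held 64.2%, 92.0%, 82.7% and 27.7%.

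At equal depth, the share of cells with Xcl1 was 5.75-fold higher in NC and the mean UMIs per positive cell 1.60-fold higher. For Ccl3 these factors were 5.65 and 1.18, for Ccl4 4.83 and 1.17, and for Ccl5 1.35 and 1.04. A positive cell here is a cell with at least 1 UMI, with the limit given above, and its median was 1 UMI for each chemokine in both libraries. These factors therefore do not separate the number of producing cells from the amount per cell. In the 4 depth classes, the difference between the libraries was widest in the shallowest for each chemokine. From shallow to deep, Ccl4 was at 117, 64.4, 109 and 118 CPM in NC and 7.54, 15.8, 24.7 and 24.0 in HC. Ccl3 was at 36.4, 15.0, 30.8 and 39.1 CPM in NC. In HC it was at 1.33, 2.96, 8.28 and 5.62 CPM, the first from 6 positive cells. The part of depth in the difference was not tested.

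Ccl3, Ccl4 and Xcl1 were found together in single cells more often than the products of their shares. Pairs with Ccl5 lay nearer the products, and Xcl1 with Ccl5 was below its product in some settings. In NC, 245 cells had both Ccl3 and Ccl4, 1.81% of cells where the product of the shares of each is 0.194%, a ratio of 9.35. Of the NC cells with Ccl3, 64.8% also had Ccl4, and of those with Ccl4, 26.2% had Ccl3. In HC the pair was in 51 cells, 53.1 times the product, and 76.1% of Ccl3-positive cells had Ccl4. Xcl1, although on another chromosome, was with Ccl3 at 4.07 times and with Ccl4 at 3.23 times the product in NC, and at 12.1 and 7.82 times in HC. In NC, 69.3% of Ccl3-positive and 55.1% of Ccl4-positive cells had Xcl1, whereas in HC 35.8% and 23.2% had it. Of all cells, 17.05% had Xcl1 in NC and 2.97% in HC, with the limit for single UMIs given above.

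The 3 pairs with Ccl5 lay nearer the product. Xcl1 with Ccl5 was at 0.961 in NC and 0.741 in HC, Ccl3 with Ccl5 at 0.864 and 1.14, and Ccl4 with Ccl5 at 1.20 and 1.10. For Ccl4 with Ccl5 in NC, the joint share of 1.47% had an interval of 1.28 to 1.69, above the product of 1.23%. The NC cells with Xcl1 held Ccl5 in 17.1%, and the NC cells without Xcl1 in 17.9%. A ratio of this kind can reach higher values where shares are small, and the difference between the libraries in these ratios was not tested. Across the 4 classes of cells by original depth, equal in size, Ccl3 with Ccl4 ranged from 7.16 to 12.6 in NC and from 40.4 to 70.9 in HC. The HC values rest on 3, 9, 16 and 23 cells with both, from the shallowest class to the deepest. In the shallowest, the joint share had an interval of 0.0183 to 0.259%, where the product is 0.00163%. Xcl1 with Ccl4 ranged from 2.50 to 4.09 in NC and from 6.34 to 8.61 in HC, so in all 8 classes these pairs were above the product. With at least 2 UMIs of each gene required, the NC ratios were 27.0 for Ccl3 with Ccl4, 7.62 for Xcl1 with Ccl4 and 0.635 for Xcl1 with Ccl5.

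**Figure D2:**
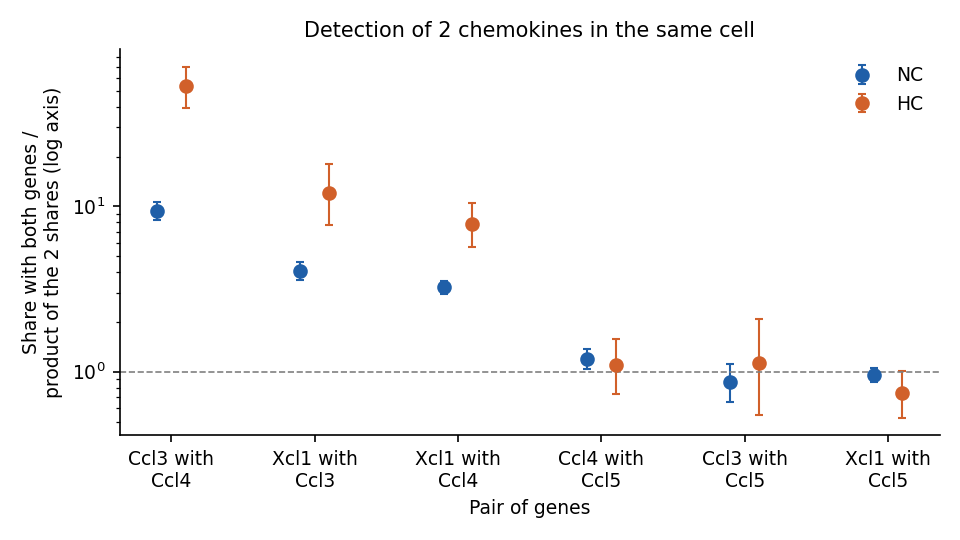
Share of cells with both genes of a pair divided by the product of the shares of each (log axis), in cells thinned to 2000 UMIs; points are the 2 libraries, bars the 95% binomial interval of the joint share, and the dashed line marks 1. Ccl3 with Ccl4 stood highest at 9.35 in NC and 53.1 in HC, and the pairs with Ccl5 lay between 0.741 and 1.20.

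Counted over all 4 genes, 65.4% of NC cells had none, 27.1% had 1, 5.41% had 2, 1.97% had 3 and 0.178% had all 4. The products of the shares give 61.7%, 32.4%, 5.56%, 0.338% and 0.00587%. NC thus had more cells with none and more with 3 or 4 than the products give, and fewer with 1. In HC, 83.2% had none, 15.9% had 1, 0.725% had 2, 0.185% had 3 and 0.0296% had all 4. Xcl1, Ccl3 and Ccl4 without Ccl5 were in 170 NC cells, where the products give 3.67, and in 19 HC cells, where they give 0.0248. The products also give 240 NC cells with Ccl3 alone, and 55 were found. Xcl1 alone was in 1430 NC cells, 10.6%, and Ccl5 alone in 1892, 14.0%. In HC, Xcl1 alone was in 2.38% of cells and Ccl5 alone in 12.7%.

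As a correlation over cells of log(1 + UMIs), Ccl3 and Ccl4 were at r = 0.61 in NC and 0.63 in HC. Xcl1 and Ccl4 were at 0.43 and 0.23, and Xcl1 and Ccl3 at 0.40 and 0.24. Every pair with Ccl5 lay within 0.03 of 0. These r are over 13508 NC and 13523 HC cells of 1 library each, which share droplet run and thinned depth, and are given as descriptions.

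The EGR and NR4A genes are nuclear factors switched on within the first hours after a T cell is triggered, and their UMIs were summed over 6 genes in each thinned cell. Ccl4 was higher in each step of that sum. In NC it was at 44.9 CPM in the 11788 cells with 0 such UMIs, 275 with 1, 485 with 2, 1359 with 3 to 4 and 2402 with 5 to 9. In HC the same steps gave 5.42, 72.2, 215, 476 and 589 CPM. Ccl3 followed the same order in NC, at 13.1, 82.1, 187, 403 and 554 CPM, and in HC at 1.37, 15.4, 55.2, 151 and 189 CPM. Xcl1 was at 180, 588, 1163, 1678 and 2045 CPM in NC and at 19.9, 88.8, 171, 139 and 367 CPM in HC. In the highest NC class, of 10 or more UMIs and 9 cells, Ccl4 was at 4667 CPM and Xcl1 at 611. The 3 HC cells of that class had Ccl4 at 3500 CPM and Xcl1 at 1500, from 9 Xcl1 UMIs against 11 in NC. Ccl5 did not follow. It stood at 153, 123, 102, 80.5 and 89.3 CPM in NC, and at 106, 107, 119, 42.2 and 33.3 CPM in HC, the last from 3 UMIs.

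NC was above HC at each of the 5 steps up to 9 UMIs for Xcl1, Ccl3 and Ccl4. In the class of 10 or more, Xcl1 was the other way, with a log2 ratio of HC over NC of 1.30 and an interval of -0.15 to 2.70. With 0 EGR or NR4A UMIs, the log2 ratio of HC over NC for Xcl1 was -3.17, against -3.20 over all thinned cells. NC had the larger share of cells with any such UMI, since 87.3% of its cells had 0 and 91.4% of HC cells. With each step given the same weight in both libraries, the log2 ratio was -3.01 for Xcl1 (-3.12 to -2.90), -2.34 for Ccl3 (-2.61 to -2.06), -2.08 for Ccl4 (-2.22 to -1.94) and -0.50 for Ccl5 (-0.57 to -0.43). The unweighted values in the same thinned cells were -3.20, -2.74, -2.50 and -0.49. Of the NC UMIs, 60.1% of those of Xcl1 lay in cells with 0 EGR or NR4A UMIs, against 37.9% for Ccl3, 38.4% for Ccl4 and 90.2% for Ccl5. These shares depend on depth. In cells thinned to 4000 UMIs they were 41.2% for Xcl1, 19.5% for Ccl3, 22.1% for Ccl4 and 84.1% for Ccl5.

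**Figure D3:**
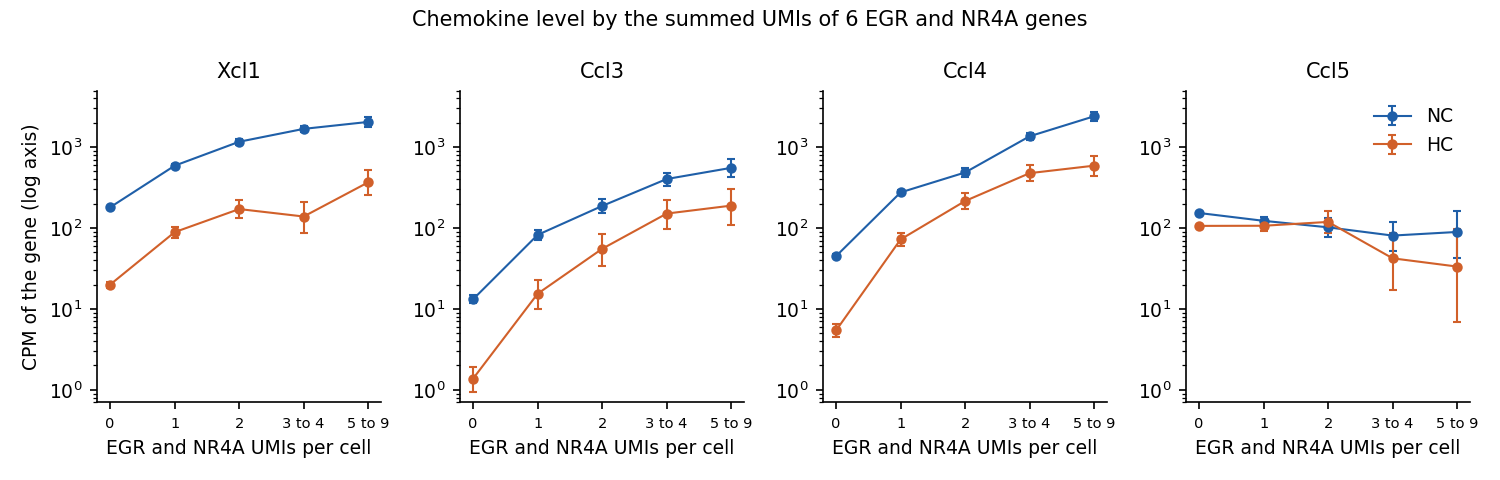
CPM of each chemokine (log axis) in cells grouped by the summed UMIs of 6 EGR and NR4A genes, with 95% Poisson intervals, in cells thinned to 2000 UMIs; the class of 10 or more (9 and 3 cells) is left out. Ccl4 went from 44.9 to 2402 CPM in NC across the classes, and Ccl5 from 153 to 89.3.

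Cells were then grouped by how many of Xcl1, Ccl3 and Ccl4 they held. In NC, 10720 cells had 0, 2153 had 1, 441 had 2 and 194 had all 3. A UMI of any EGR or NR4A gene was in 9.06%, 20.6%, 42.4% and 61.3% of them. Tnfrsf9, the costimulatory receptor 4-1BB, was in 5.49%, 20.2%, 31.5% and 48.5%. Ifng, the effector cytokine interferon gamma, was in 0.280%, 1.39%, 6.35% and 10.3%, and Prf1, which encodes perforin, in 1.40%, 4.32%, 7.26% and 16.0%. Klf2, a factor of quiescent and recirculating T cells, went the other way, at 54.2%, 38.5%, 29.7% and 26.3%. Ccl5 had no such order, at 17.6%, 17.9%, 21.8% and 12.4%.

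The HC cells, although fewer, gave the same orders for Tnfrsf9, Ifng, Prf1 and Klf2. The cells with 0, 1, 2 and 3 of the chemokines numbered 12958, 491, 51 and 23. Tnfrsf9 was in 5.79%, 16.3%, 29.4% and 47.8%, and Klf2 in 58.7%, 32.4%, 13.7% and 4.35%, the last from 1 cell. Ifng was in 0.255%, 1.02%, 5.88% and 17.4%, with 3 and 4 cells in the last 2 classes. Prf1 was in 1.51%, 3.67%, 7.84% and 21.7%, with 4 and 5 cells there. For each of these genes, the HC intervals of the last 2 classes overlapped. A UMI of any EGR or NR4A gene was in 7.64%, 23.8%, 70.6% and 60.9%. Gzmb, the protease granzyme B, was in 35.4%, 37.7%, 51.0% and 65.2% in HC, against 22.1%, 28.1%, 33.6% and 31.4% in NC. The 23 HC cells with all 3 had a median of 9143 UMIs before thinning against 7416 in cells with none, while in NC these medians were 7298 and 6958.5. Thinning sets the depth equal but leaves any link between cell size and state, whose part was not tested.

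**Figure D4:**
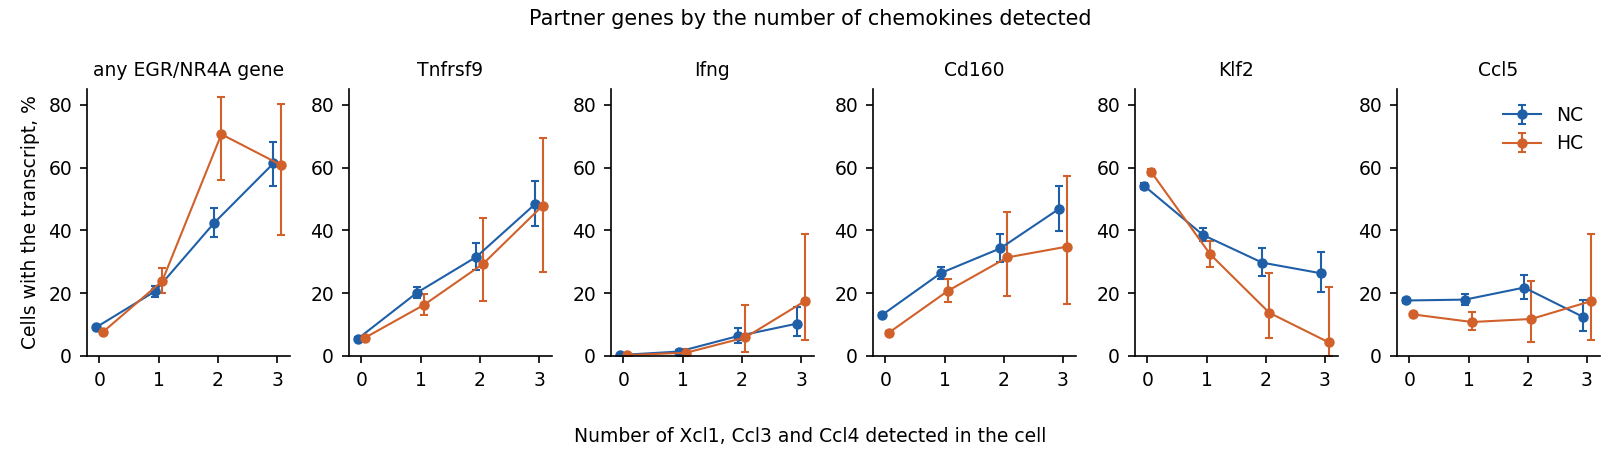
Share of cells with each transcript, in percent, by the number of Xcl1, Ccl3 and Ccl4 detected in the cell, in cells thinned to 2000 UMIs, with 95% binomial intervals. Tnfrsf9 was in 5.49% of NC cells with none and 48.5% with all 3, Klf2 in 54.2% and 26.3%, and Ccl5 showed no such order.

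The partner genes of each chemokine were taken as the 8 genes with the highest r over thinned cells, among genes in at least 2% of cells. For Xcl1 in NC they were Tnfrsf9 (r = 0.39), Ncl (0.30), which encodes the nucleolar protein nucleolin, Nr4a2 (0.28), Cd160 (0.28), a receptor of cytotoxic cells, Crtam (0.27), an adhesion protein found on T cells after activation, Bcl2a1b (0.25), an anti-apoptotic gene, Odc1 (0.25), the first enzyme of polyamine synthesis, and Rgs16 (0.24), a regulator of G protein signalling. Tnfrsf9 stood at 189 CPM in NC cells with Xcl1 and 32.7 CPM in those without. Cd160 stood at 234 against 76.3 CPM. At the low end were Ms4a4b (-0.17), Klf2 (-0.16) and S100a10 (-0.15). In HC, 5 of the 8 were shared: Bcl2a1b, Cd160, Ncl, Odc1 and Tnfrsf9, with r from 0.11 to 0.15. Srm, a polyamine synthesis enzyme, Hivep3 and Gnl3 made up the rest.

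For Ccl4 the leading NC partners were Nr4a2 (0.32), Rgs16 (0.27), Egr3 (0.22), Tnfrsf9 (0.21), Crtam (0.19), Tagap (0.18), Rgs1 (0.17) and Egr1 (0.17). Nr4a2 was in 17.7% of NC cells with Ccl4 and 2.16% of those without. In HC, Egr1 led for both Ccl4 (0.19) and Ccl3 (0.14), and Egr1 was in 30.4% of HC cells with Ccl4 against 4.36% without. Ccl3 in NC had Nr4a2 (0.27), Rgs16 (0.22), Tnfrsf9 (0.20), Crtam (0.15), Egr3 (0.15), Tagap (0.14), Rgs1 (0.13) and Bcl2a1b (0.13). Between the libraries, Ccl4 had 4 of 8 partners in common and Ccl3 had 2. Nr4a2, Crtam, Rgs16 and Egr3 were in under 2% of HC cells and so were not ranked there. In HC the r of Ccl3 partners other than Egr1 were at most 0.10, over 67 positive cells, and are too weak to read. Klf2 had the lowest r for Ccl3 and Ccl4 in both libraries.

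The top 8 partners of Ccl5 were not among the top 8 of Xcl1, Ccl3 or Ccl4 in either library, and all were weak. In NC the Ccl5 partners were S100a6 (0.17), S100a4 (0.17), Ly6c2 (0.14), Gzmb (0.11), Serpinb6b (0.10), Pim1 (0.09), Lgals1 (0.07) and Epsti1 (0.07). Gzmb and Serpinb6b were not particular to Ccl5 in NC, where each had an r of 0.09 with Xcl1. With Xcl1 in HC they were at 0.05 and 0.02. In HC, 6 of the 8 NC partners of Ccl5 were among its top 8. S100a4 and S100a6, small calcium-binding proteins, and Ly6c2, a surface glycoprotein, are known as genes of effector and memory T cells. Id3, Tcf7 and Dapl1 were lowest in NC, and Tcf7 and Dapl1 were lowest in HC. Tcf7 encodes a factor of naive and stem-like T cells.

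The contrast was wider in cells rich in the message. Among the 112 NC cells with 5 or more Ccl5 UMIs, S100a6 was in 77.7%, Ly6c2 in 60.7%, Gzmb in 58.0% and S100a4 in 53.6%, against 33.1%, 13.4%, 22.0% and 10.0% of cells with 0 Ccl5 UMIs. Tcf7 was in 17.9% against 41.1%, Id3 in 22.3% against 49.1% and Klf2 in 37.5% against 51.3%. In the 66 HC cells rich in Ccl5, S100a6 was in 86.4%, Ly6c2 in 60.6%, S100a4 in 54.5% and Gzmb in 48.5%, against 42.7%, 16.98%, 14.9% and 34.2%. Tcf7 was in 7.58% against 37.4% and Klf2 in 34.8% against 57.6%. Any EGR or NR4A gene was in 8.04% of the Ccl5-rich NC cells, where 13.1% of the cells with 0 Ccl5 UMIs had one.

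Cells rich in Xcl1 are described in the same way, and how many of them were also rich in Ccl5 is not given here. Of the 365 NC cells with 5 or more Xcl1 UMIs, Tnfrsf9 was in 57.5%, any EGR or NR4A gene in 46.0% and Nkg7, a cytotoxic granule protein, in 92.6%, against 5.70%, 10.0% and 69.7% of cells with 0 Xcl1 UMIs. S100a4 was in 8.49% against 11.8%, and Ly6c2 in 12.3% against 14.7%. Il7r, the interleukin 7 receptor, was in 14.5% against 40.8%, Tcf7 in 13.7% against 42.3% and Klf2 in 15.3% against 53.8%. Id3 was alike, at 49.9% and 47.1%. The 31 HC cells rich in Xcl1 had Tnfrsf9 in 41.9% and Klf2 in 6.45%, against 5.91% and 58.3%. In NC, Tcf7 and Klf2 were in smaller shares of both groups of rich cells than of cells with 0 UMIs of the chemokine. The 2 groups differed in their shares of Tnfrsf9, S100a4, S100a6, Ly6c2 and Id3. Ccl3-rich and Ccl4-rich cells held EGR or NR4A messages more often still. Of the 45 NC cells with 5 or more Ccl3 UMIs, 77.8% had one and 31.1% had Ifng. Of the 144 NC cells with 5 or more Ccl4 UMIs, 77.1% had one, 17.4% had Ifng and 11.8% had Tnf, the cytokine tumour necrosis factor.

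**Figure D5:**
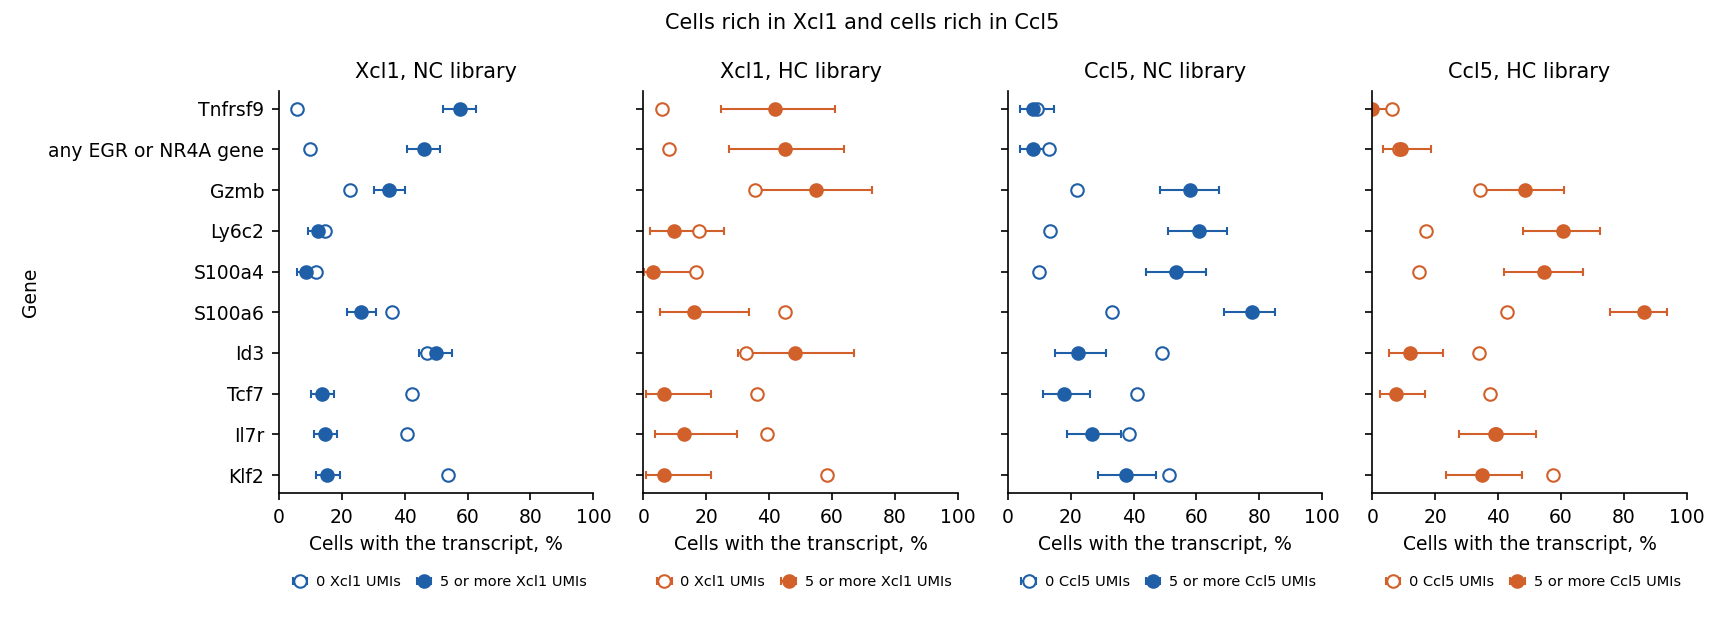
Share of cells with each transcript, in percent, among cells with 0 (open) and with 5 or more (filled) UMIs of Xcl1 or of Ccl5, in cells thinned to 2000 UMIs, with 95% binomial intervals. S100a6 was in 77.7% of Ccl5-rich and 26.0% of Xcl1-rich NC cells, and Tnfrsf9 in 8.04% and 57.5%.

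Cells with the most mitosis messages held less Xcl1 and Ccl4. By the summed UMIs of 14 mitosis genes, Xcl1 in NC was at 229 CPM with 0, 300 with 1 to 2, 328 with 3 to 9 and 129 with 10 or more. Ccl4 in NC was at 111, 126, 99.5 and 54.4 CPM, and in HC at 31.6, 19.7, 15.0 and 10.97 CPM. Ccl5 in NC stood between 142 and 155 CPM over the classes. In HC it was at 98.2, 119, 114 and 88.7 CPM, lowest in the class of 10 or more. All 14 mitosis genes were higher in HC, 0 of them by 1.5-fold, with a median log2 ratio of 0.34. With these classes weighted alike, the log2 ratio of HC over NC was -3.12 for Xcl1, -2.57 for Ccl3, -2.36 for Ccl4 and -0.48 for Ccl5.

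The 14 genes of hypoxia and glycolysis were all at least 1.5-fold higher in HC, with a median log2 ratio of 1.30, against 1.93% of all 8704 genes. This list was chosen with results of these data known, so nothing is read from that count. Within NC, Xcl1 was higher in cells with more UMIs of these 14 genes, at 140, 212, 344 and 470 CPM over 4 classes cut on both libraries together. In HC it was at 20.6, 19.7, 35.7 and 29.6 CPM. Ccl4 was at 72.9, 93.5, 128 and 125 CPM in NC and at 13.0, 15.9, 20.8 and 18.3 CPM in HC. With the 4 classes weighted alike, the log2 ratio was -3.50 for Xcl1 (-3.62 to -3.39), -2.89 for Ccl3, -2.63 for Ccl4 and -0.47 for Ccl5. The Xcl1 ratio over all thinned cells was -3.20. Whether these genes have a part in the difference between the libraries was not tested.

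The receptor genes Xcr1, Ccr1 and Ccr3 were rare in the same cells. Xcr1 had 8 UMIs in NC and 19 in HC, Ccr1 13 and 22, and Ccr3 14 and 18. Of 33 other chemokine ligand genes in the matrices, 18 had 0 UMIs in both libraries, and 1, Ccl25, had at least 5 CPM, at 15.1 and 14.2 CPM. Other chemokine receptors with at least 5 CPM were Ccr7 (208 against 196 CPM), Cxcr6 (56.6 against 51.4), Cxcr3 (50.3 against 45.0) and Cxcr4 (7.25 against 12.5), and Cxcr4 was past 1.5-fold toward HC. Ccl9, which lies between Ccl5 and Ccl3, had 66 UMIs in NC and 12 in HC, 5.44-fold higher in NC (2.91 to 11.05), at 0.570 and 0.105 CPM. Heatr9, beside Ccl5, had 7 and 2 UMIs, and Ccl6 had 3 and 1. Gm20743 overlaps Xcl1 on the opposite strand and had 7 and 1 UMIs. Whether the counting used strand is not given in the sources used here.

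Among gene groups that act beside these chemokines, 5 of the 6 EGR and NR4A genes were past 1.5-fold toward NC, and the list's median log2 ratio was -0.80. Over all 8704 genes, the background for each list here, 1.47% were past it toward NC and 1.93% toward HC, with a median of -0.03. Nr4a2 was at 22.5 against 11.4 CPM, and Egr1, the exception, at 40.8 against 33.5. Of 5 effector cytokines with at least 5 CPM, 3 were past 1.5-fold toward NC, with a median of -0.77, among them Ifng at 7.89 against 1.82 CPM and Tnf at 7.13 against 4.19. Of 13 other early response genes, 3 were past 1.5-fold toward NC, with a median of -0.08. Of 11 granule and cytotoxic genes, 0 were past it toward NC and 2 toward HC, with a median of -0.19. Gzmb was 1.69-fold and Gzma 2.95-fold higher in HC. Of 10 factors that control decay of AU-rich messages, 0 were past 1.5-fold, with a median of -0.21. The lists were chosen with results of these data known.

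Markers of other cell types that can make these chemokines were mixed. Natural killer cell markers summed to 7.61 CPM in NC and 7.80 in HC, with 1 of 6 at 5 CPM or more and Ncr1 at 0 and 1 UMIs. Macrophage markers summed to 6.50 and 3.04 CPM, with 0 of 6 at 5 CPM or more, C1qa at 0 in both and Csf1r at 2 and 1 UMIs. Gamma-delta T cell markers summed to 128 and 108 CPM, with 1 of 4, Trdc, at 5 CPM or more, at 125 and 106 CPM. B cell markers summed to 37.3 and 17.5 CPM, with 2 of 8 at 5 CPM or more and 1, Igkc, past 1.5-fold toward NC. The part of gamma-delta T cells in the chemokine values was not tested. Lyz2 had 416 UMIs in NC and 0 in HC. The NC Lyz2 UMIs lay in 14 cells, which held 144 Xcl1, 3 Ccl3, 13 Ccl4 and 46 Ccl5 UMIs. Of the UMIs of each chemokine, at least 98.8% lay in cells with Cd8a or Cd8b1 in both libraries. Since 98.4% of all NC and 98.3% of all HC cells had one of these, that share does not tell which cell type made the messages. Without the B cell-like and Lyz2-positive cells, a choice made after seeing the data, the log2 ratios were -3.25 for Xcl1, -2.64 for Ccl3, -2.40 for Ccl4 and -0.47 for Ccl5.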

How the data were processed

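The deposited values are raw UMI counts of genes by barcodes, from the 10x Genomics 3' kit. Per the file headers, they come from Cell Ranger 6.1.2. Seurat 3.2.3, the build mm10 and another version of Cell Ranger, 5.0.0, stand in the submitters' processing notes. The annotation release is not given in the sources used here. GENCODE matched 99.6% of the identifiers by gene ID.

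Cells with at least 500 genes, at least 1000 UMIs and at most 10% mitochondrially encoded UMIs were kept (92.2% of NC and 87.9% of HC barcodes), and doublets were not removed. Counts were summed per library with no pseudocount. CPM carry exact Poisson intervals, shares Clopper-Pearson intervals and ratios exact binomial intervals, all at 95%. A count of 0 allows up to 3 counts, 0.0259 CPM in NC and 0.0262 in HC. PCR copies are collapsed by UMI, and intervals cover counting error only. Calls needed 5 CPM in either library and a ratio of 1.5. Cells were thinned without replacement to 2000 UMIs for shares, pairs, classes and correlations, which left out 133 NC and 94 HC cells. Named genes were the 4 chemokines, their receptors (1 receptor gene is not reported here) and neighbours, chemokine genes with at least 5 CPM, the up to 4 largest ratios of each list, and for each chemokine the 8 highest and 3 lowest r. Genes named in the groups of cells by chemokine UMIs, and those shown in the pictures of them, were chosen after their values were seen. The members and lists were chosen with earlier results of these data known. Steps were tested on simulated data. edgeR 4.0.16 and DESeq2 1.42.0 gave scaling factors as alternatives and no test. Python 3.11.15, numpy 2.4.6, scipy 1.17.1 and matplotlib 3.10.9 were used.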

Additional observations from a re-analysis of the deposited data

How the results depend on the processing

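No paired analysis was possible because each group had 1 library, and no replicate could be left out. None of the 44 alternatives for the log2 ratios of HC over NC (11 per chemokine) turned a direction, and 30 stayed within the main counting interval. Without the 1% of cells richest in each gene, Xcl1 was at -3.92, Ccl3 at -4.58 and Ccl4 at -3.70. That choice takes a larger share of the HC UMIs by construction. With the stricter cell filter these were -3.19, -2.47 and -2.27. Without cells with 3 or more mitosis UMIs, Xcl1 was at -2.97, Ccl4 at -2.14 and Ccl5 at -0.36. Thinned to 2000 UMIs, Xcl1 was at -3.20 and Ccl4 at -2.50. With every cell weighted alike, Ccl4 was at -2.53 and Ccl5 at -0.52, and without cells over the 95th percentile of UMIs Ccl4 was at -2.48. The cause of these shifts was not tested.

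Genes called higher in NC numbered 128, with 56 at a floor of 20 CPM, 248 at 1 CPM and 16 at a ratio of 2, and those in HC 168, with 69, 373 and 38. The direction turned for 2 of the pairs with Ccl5, whereas Ccl4 with Ccl5 stayed above 1 under each alternative in both libraries. In NC, Xcl1 with Ccl5 was at 1.04 thinned to 4000 UMIs and 1.07 unthinned, and Ccl3 with Ccl5 at 1.28 with at least 2 UMIs, 1.05 at 4000 and 1.18 unthinned. In HC the latter was at 0 with at least 2 UMIs. Xcl1 with Ccl5 in HC was at 0.532 thinned to 4000 UMIs, with a joint share of 0.535% (0.414 to 0.681) below the product of 1.01%, and at 0.951 unthinned. With at least 2 UMIs in NC, its joint share of 0.229% (0.156 to 0.326) was also below the product of 0.361%. Of 24 alternatives for the partner genes, 20 kept at least 6 of the 8, and unthinned values kept 1 of 8 for Ccl3 and for Ccl4 in HC. For Xcl1, the Spearman rank correlation kept 4 of 8 in NC. Without cells with 3 or more mitosis UMIs, 5 of 8 were kept for Xcl1 in HC. With classes of EGR and NR4A UMIs at 4000 UMIs per cell, weighted alike, Xcl1 was at -2.86 and Ccl4 at -1.90. Cells per class and UMIs per cell limit the HC values of Ccl3 most, with 591 UMIs in all.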

Other observations

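The chemokines were also counted in the barcodes that the filters left out, 1157 in NC and 1878 in HC, most of which were over the mitochondrial limit. Xcl1 stood at 228 CPM in the NC ones (205 to 252) and 27.6 in the HC ones (21.4 to 34.9), from 369 and 68 UMIs. Ccl4 stood at 66.1 and 14.6 CPM, Ccl3 at 9.26 and 3.24 CPM from 15 and 8 UMIs, and Ccl5 at 77.2 and 51.9 CPM. Ccl3 in NC was thus at 9.26 CPM in left-out barcodes against 32.1 CPM in kept cells, and Ccl5 at 77.2 against 146. Each of the 4 was higher in NC than in HC there as well, with overlapping intervals for Ccl3.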
